A study of Mus musculus with 9 samples.

Results

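The replication-dependent histone genes of the mouse lie in clusters and carry names of the form Hist1h to Hist4h, where the number names the cluster and the letters after it the histone. All rows whose deposited gene name starts in this way were taken, which gave 38 of 28051 genes. By name they comprise 5 genes for the linker histone H1, 7 for H2A, 11 for H2B, 9 for H3 and 6 for H4. The processed pseudogenes Hist1h2al and Hist3h2bb-ps are counted under H2A and H2B. By name, too, 26 belong to Hist1 on chromosome 13, 8 to Hist2 on chromosome 3 and 3 to Hist3 on chromosome 11. The last 1, Hist4h4, is on chromosome 6. Hist1h2al starts at base 51202727 of chromosome 13, apart from the other Hist1 members, which lie between bases 21779883 and 23934851. Gencode vM21 holds 70 genes with such names, and the 32 that are no row of the tables, Hist1h1t among them, were not analysed here. Their levels were compared in oocytes of the growth phase from XX, XO and XY females, with 3 samples per genotype. Each sample pooled 30 oocytes from females at 18 dpp, 10 of 50–55 μm and 20 of 55–60 μm in diameter. All samples carry the strain label C57BL/6. The XY females and the XX females, their littermates, were offspring of B6.YTIR males, in which a Y chromosome from Tirano fails to direct testis formation on the C57BL/6J (B6) background. The XO females were offspring of males that carry Paf on a background crossed from C3H/HeSnJ to B6, so that the parental stock differed between XO and the other genotypes together with the sex chromosomes. The labels do not say from how many females a pool was drawn, and p-values measure the spread between pools.

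Nucleosomes wrap DNA around a core of H2A, H2B, H3 and H4, and H1 binds the linker between them. In dividing cells the clustered genes are transcribed in S phase, and their mRNAs end in a short stem-loop in place of a poly(A) tail. The stem-loop is bound by SLBP, and the U7 small nuclear RNP guides the cut behind it. Growing oocytes do not replicate DNA, and they store histone mRNAs and proteins for the embryo. The libraries were primed with oligo-dT by Smart-seq3, which favours RNAs with a poly(A) tail, and each molecule was counted once by a unique molecular identifier (UMI) at its 5′ end. Hence the values below are levels of RNA that was captured in this way, and the share of stem-loop mRNA that escaped it was not measured.

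The stem-loop is shown first, since it defines these mRNAs. It was searched for past the stop codon in the annotated transcripts, with pyrimidines allowed to vary in the first arm and purines in the second. The loop could vary too, with either pyrimidine at 1 position and any base at its end, and 1 further purine was optional in the second arm. The stem-loop was found in 27 of the 38 members. It began 21 to 58 bases past the stop codon, with a median of 31 bases. The search found 7 distinct stem-loops, and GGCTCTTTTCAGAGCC, which belonged to 15 members of H1, H2A, H2B and H3, was the most frequent. The 6 H4 members had arms with one more C and G pair, in 3 versions. Below are 1 or more members with each version, 5′ to 3′ as in Gencode vM21 (GRCm38), with the stem-loop in capitals and 5 flanking bases on each side.
Hist1h1c: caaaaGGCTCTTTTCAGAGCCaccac
Hist2h3c1: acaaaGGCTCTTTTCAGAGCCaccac
Hist1h2bh: ccaaaGGCTCTTTTCAGAGCCactca
Hist3h2a: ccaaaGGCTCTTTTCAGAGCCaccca
Hist4h4: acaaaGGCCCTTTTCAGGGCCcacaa
Hist2h4: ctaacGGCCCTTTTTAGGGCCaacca
Hist1h4a: ccaaaGGCCCTTCTCAGGGCCgccca
Hist1h3f: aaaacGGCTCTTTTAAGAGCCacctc
Hist1h3g: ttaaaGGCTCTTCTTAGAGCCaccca
Hist2h2ac: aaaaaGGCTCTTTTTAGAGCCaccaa

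The starts of the members lie in promoters of known design, in which many H2A and H2B genes are transcribed in opposite directions from a shared region. A window of 250 bases before to 50 bases after the start (RefSeq, GRCm38.p6) was found for 32 of the 38 members and scanned on both strands for 4 short motifs known from histone promoters. The CCAAT box, a site of NF-Y, was present in 29 of 32 windows (90.6%) against 37.4% of all 32851 windows. The octamer ATTTGCAT, bound by POU factors, was present in 7 (21.9%) against 1.74%, and all 7 belonged to H2A (4 of 6 members with a window) or H2B (3 of 9). These counts take 1 window per member, and of Hist1h2be, which has a second one at chr13:23585921-23586220, the window left out also holds the octamer. TATAAA was found in 14 (43.8%) against 13.6%. The H1 box AAACACA was found in 6 (18.8%) against 7.18% of all windows, and in 4 of 5 windows of H1 genes. The counts are of windows and not of separate sites. The windows of Hist1h2aa and Hist1h2ba overlap, and the same octamer and the same AAACACA are counted in both. Hist1h2bq and Hist1h2br hold CCAAT at the same distances from their starts. The motifs are letters in a window and not measured sites. Printed below is the window of Hist1h2ac, at chr13:23683910-23684209 on the minus strand, since the start of Hist1h2bc, the member with the most UMIs, lies within it at base 23684199 on the plus strand. The second is the window of Hist1h2ba, at chr13:23934107-23934406 on the minus strand, which overlaps that of Hist1h2aa on the other strand. These genes encode TH2B and TH2A, histones of the testis and the oocyte. Capitals mark any of the 4 motifs on either strand.
Hist1h2ac: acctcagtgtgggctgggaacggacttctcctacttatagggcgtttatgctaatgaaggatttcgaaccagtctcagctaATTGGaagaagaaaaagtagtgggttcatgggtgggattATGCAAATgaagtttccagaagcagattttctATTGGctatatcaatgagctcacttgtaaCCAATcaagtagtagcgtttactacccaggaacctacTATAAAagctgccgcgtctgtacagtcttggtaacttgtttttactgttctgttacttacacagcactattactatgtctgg
Hist1h2ba: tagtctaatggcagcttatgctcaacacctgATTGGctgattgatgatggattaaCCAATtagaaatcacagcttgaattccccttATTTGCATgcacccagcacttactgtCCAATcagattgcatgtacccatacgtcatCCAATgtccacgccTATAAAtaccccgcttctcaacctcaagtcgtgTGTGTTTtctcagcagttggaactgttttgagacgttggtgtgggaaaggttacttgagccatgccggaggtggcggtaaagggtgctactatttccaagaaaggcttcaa

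Most members were close to the limit of detection. Every gene row of the tables has at least 1 UMI over the 9 samples, so that a UMI in each of the 38 members is a property of the tables. Together they received 442 UMIs over the 9 samples (95% exact Poisson interval 402 to 485, counting error only). This was 60, 57 and 69 UMIs in XX samples 1, 2 and 3, 47, 26 and 40 in XO samples and 41, 51 and 51 in XY samples, of between 2130145 and 3157338 UMIs on genes per sample. XX samples thus had the most and XO2 the fewest. The members took up 0.00195% of all gene UMIs. A member had a median of 3.5 UMIs over all samples, whereas a gene row of the whole tables had 30. At least 10 UMIs were counted for 12 members (31.6%) and for 63.9% of all gene rows. Another 7 members had 4 to 9 UMIs, and 19 had 1 to 3, of which 12 had a single UMI. Only 5 members had a UMI in each of the 9 samples. The 6 members with the most UMIs held 304 of the 442 (68.8%), and the other 32 shared 138.

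**Figure D1:**
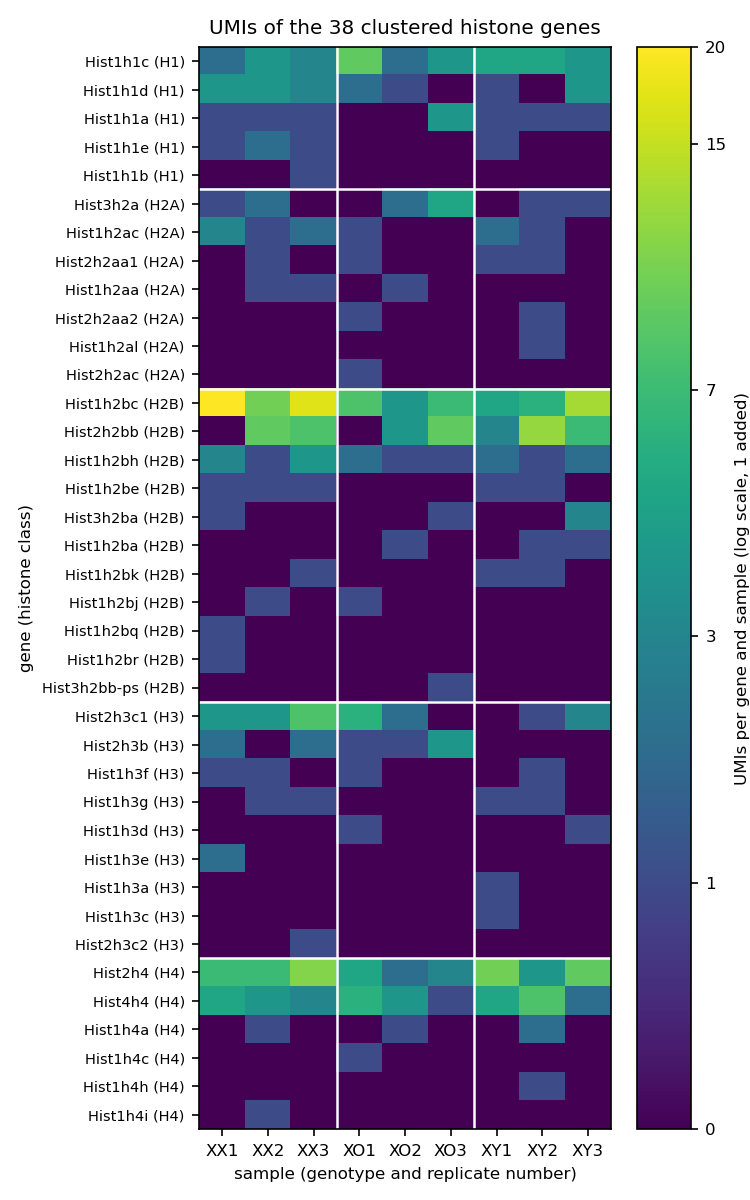
UMIs of each of the 38 genes (rows, grouped by histone class) in each of the 9 samples (columns), on a log colour scale with 1 added. A few rows, led by Hist1h2bc with up to 20 UMIs, carry most of the signal, and most cells of the other rows hold 0 or 1 UMI.

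By class, H2B had 180 UMIs (40.7% of those of all members), H4 103 (23.3%), H1 73 (16.5%), H3 53 (12.0%) and H2A 33 (7.47%). By cluster, Hist1 had 230 (52.0%), Hist2 156 (35.3%), Hist4h4 alone 38 (8.60%) and Hist3 18 (4.07%).

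Among the H2B genes, Hist1h2bc (ENSMUSG00000018102.5, chr13:23684199-23692908, plus strand) had 90 UMIs, the most of any member. It was counted at 20, 10 and 17 UMIs in XX samples 1 to 3, at 8, 4 and 7 in XO and at 5, 6 and 13 in XY samples. The lowest XX sample lay above all XO samples in UMIs but not above XY3. After division by the spike-in factor of each sample, which the authors applied to give normalized CPM, XX oocytes had a level of 5.27 ± 1.81 (SD, n = 3), against 3.39 ± 1.15 in XO and 2.73 ± 1.05 in XY oocytes, and XX2, at 3.50, lay within the range of both other genotypes. Hist2h2bb (chr3:96269752-96270132) was counted at 0, 9 and 8 UMIs in XX, 0, 4 and 9 in XO and 3, 12 and 7 in XY samples. The low values were those of the samples numbered 1 in each genotype. Hist1h2bh had 3, 1 and 4 UMIs in XX, 2, 1 and 1 in XO and 2, 1 and 2 in XY samples, and the ranges overlapped. TH2B, encoded by Hist1h2ba, was represented by 3 UMIs, 1 each in XO2, XY2 and XY3. The other 7 H2B members had 1 to 5 UMIs each, including the pseudogene Hist3h2bb-ps with 1.

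Hist2h2bb was the clearest case of a member that varied with the replicate number. Only 3 of its 52 UMIs (5.77%) came from the samples numbered 1, which held 30.6% of all gene UMIs. Of the 1393 gene rows with 42 to 62 UMIs, 69 (4.95%) had as few UMIs or fewer in these samples, and the part that a shared day or batch may have in this was not tested, since the labels do not say what a number marks. The sum over all members was 148 UMIs in the samples numbered 1, 134 in those numbered 2 and 160 in those numbered 3.

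Among the H4 genes, Hist2h4 (chr3:96261682-96263311) followed with 58 UMIs, 7, 7 and 11 in XX, 5, 2 and 3 in XO and 10, 4 and 9 in XY samples. XO samples had the fewest, and in UMIs every XX sample was above every XO sample. In normalized CPM the level was 1.77 ± 0.780 (SD, n = 3) in XO, against 2.77 ± 0.508 in XX and 2.89 ± 1.68 in XY oocytes, and XO1, at 2.59, lay above XX2, at 2.45. Hist4h4 (chr6:136801553-136804415) was counted at 5, 4 and 3 UMIs in XX, 6, 4 and 1 in XO and 5, 8 and 2 in XY samples, so that the samples numbered 3 were the lowest in each genotype. Hist1h4a had 4 UMIs, in XX2, XO2 and XY2 alone. The other 3 H4 members, Hist1h4c, Hist1h4h and Hist1h4i, had 1 UMI each.

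Among the H1 genes, Hist1h1c (H1.2, chr13:23738808-23740367) had 38 UMIs. The XX samples held 2, 4 and 3, the XO samples 9, 2 and 4 and the XY samples 5, 5 and 4. XO1 was the highest, and the XO range in UMIs enclosed those of XX and XY samples. Hist1h1d (H1.3, chr13:23553262-23560686) was counted at 4, 4 and 3 UMIs in XX, 2, 1 and 0 in XO and 1, 0 and 4 in XY samples. In UMIs, every XX sample was above every XO sample, whereas in normalized CPM XX3, at 0.914, fell below XO1, at 1.04. Hist1h1a (H1.1) had 10 UMIs, 4 of which came from XO3 alone. The other 2 H1 members were Hist1h1e (H1.4), with 5 UMIs, and Hist1h1b (H1.5), with 1.

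Among the H3 genes, Hist2h3c1 (chr3:96246685-96248509) had 4, 4 and 8 UMIs in XX, 6, 2 and 0 in XO and 0, 1 and 3 in XY samples. All XX values lay above all XY values, at 1.75 ± 0.592 against 0.410 ± 0.459 normalized CPM (SD, n = 3), and XO samples covered the range from 0 to 3.11. Hist2h3b (chr3:96268654-96269141) was counted at 2, 0 and 2 UMIs in XX and 1, 1 and 4 in XO samples, and no UMI was found in any of the 3 XY samples, which allows up to 3 UMIs over that genotype. Hist1h3f had 4 UMIs, 1 each in XX1, XX2, XO1 and XY2. Another 6 H3 members had 1 to 4 UMIs each. Added up, the 9 H3 members had 9, 6 and 12 UMIs in XX, 9, 3 and 4 in XO and 3, 3 and 4 in XY samples, and in normalized CPM the XY sums (0.977 to 1.39) lay below those of XX (2.10 to 3.66) and XO oocytes (1.55 to 4.66). H3 was the only class whose sums in normalized CPM set 1 genotype apart from both others. Hist2h3c1 held 28 of the 53 H3 UMIs, and without it the H3 sums in normalized CPM overlapped between the genotypes. Per 1000000 gene UMIs, the XY sums of all 9 H3 members overlapped with those of XO oocytes. On that scale the H2B sums of XX samples (8.99 to 11.8) lay above those of XO (4.38 to 7.54) and XY samples (5.63 to 8.28). Without Hist1h2bc, which held 47 of the 80 H2B UMIs in XX samples, the H2B sums overlapped, at 2.81 to 5.32 in XX against 1.30 to 4.76 in XO and 3.29 to 6.02 in XY samples.

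H2A was the class with the fewest UMIs. Hist3h2a (chr11:58954685-58956830) had 1, 2 and 0 UMIs in XX, 0, 2 and 5 in XO and 0, 1 and 1 in XY samples. Hist1h2ac, which shares its promoter with Hist1h2bc, had 3, 1 and 2 UMIs in XX, 1, 0 and 0 in XO and 2, 1 and 0 in XY samples. The H2B partner had 90 UMIs against its 10, although their starts lie in the same window. Hist2h2aa1 had 4 UMIs, 1 each in XX2, XO1, XY1 and XY2. TH2A, encoded by Hist1h2aa, was represented by 3 UMIs, 1 each in XX2, XX3 and XO2, so neither gene of the TH2A and TH2B pair was detected in all genotypes. Hist2h2aa2, Hist2h2ac and the pseudogene Hist1h2al had 1 or 2 UMIs.

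**Figure D2:**
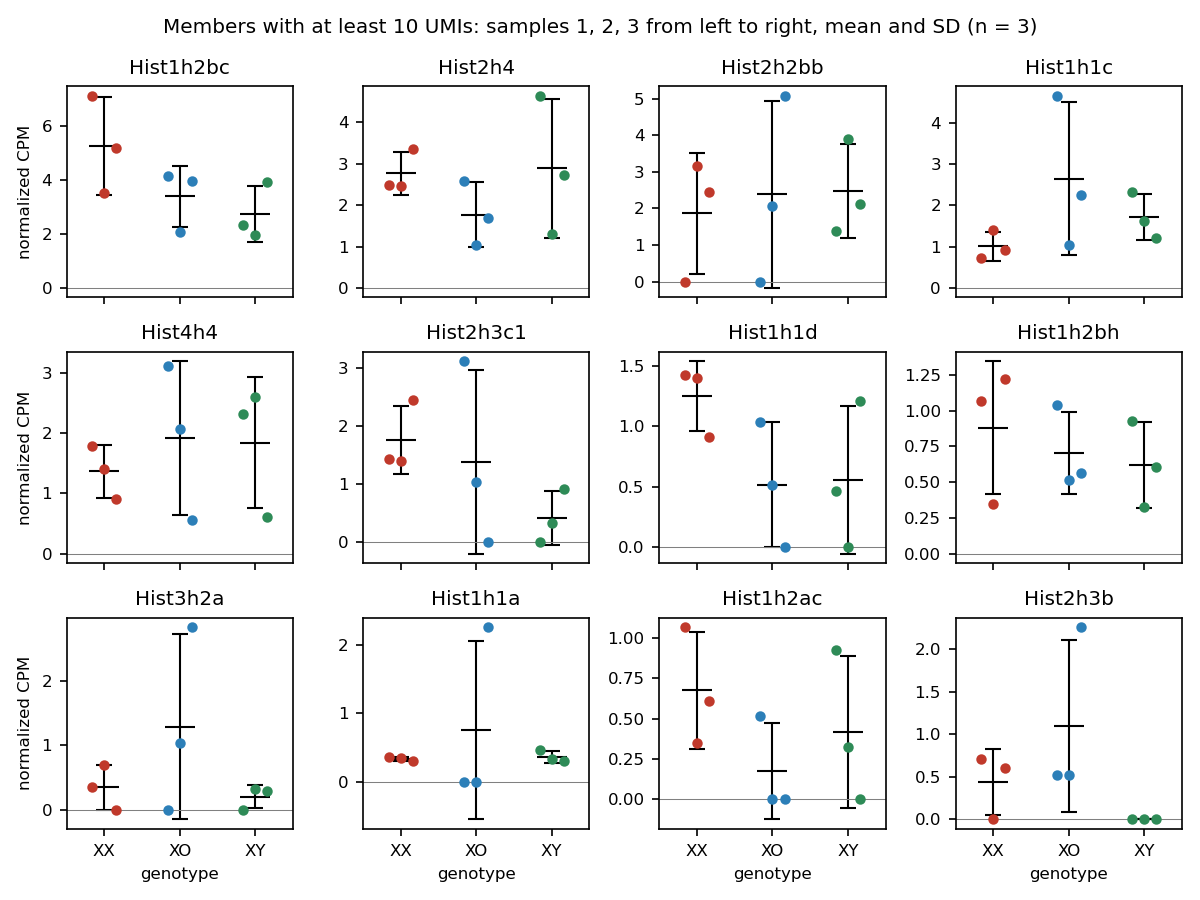
Normalized CPM (vertical axis, a scale of its own in each panel) of the 12 members with at least 10 UMIs in XX, XO and XY oocytes. Points are samples 1, 2 and 3 from left to right, horizontal bars are means and vertical bars SD (n = 3). The genotypes overlap in every panel except XX against XY for Hist2h3c1 and XO against XY for Hist2h3b, whose XY samples are all at 0.

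The design asks whether the sex chromosomes, XX, XO or XY, go with a difference in these levels. Genotypes were compared from the UMI counts by edgeR's quasi-likelihood test, with the spike-in factors of the authors, 1 fit over all 9 samples and a call at an unadjusted p below 0.05. Of the 38 members, only Hist1h2bc passed edgeR's filter on low counts, and it was not called. It met the filter through the XX samples, at 20, 10 and 17 UMIs, and XY3, at 13, as no other sample had more than 8. It was 0.63 ± 0.48 (SE) higher on the log2 scale in XX than XO oocytes (edgeR adjusted p = 0.472), against a background of 18.1% of the 10993 tested genes called in either direction. Between XX and XY oocytes the log2 difference was 0.92 ± 0.46 (adjusted p = 0.946), with a background of 5.80%. Between XY and XO oocytes it was −0.29 ± 0.50 (adjusted p = 0.834), with a background of 9.93%. All adjusted p-values were taken over all tested genes by Benjamini and Hochberg. The median log2 difference of the tested genes was −0.46, −0.19 and −0.30 in the same order, so that Hist1h2bc lay 1.09, 1.11 and 0.01 above it. In XX against XY oocytes, Hist1h2bc was called when the factors were computed on the genes (log2 difference 1.10), with DESeq2 (1.10), with 2 surrogate variables (1.34), in the batch-regressed values by limma (0.97) and without XY3 (1.30). In these settings, in turn, 293, 288, 1010, 1162 and 103 of the 10993 tested genes were called higher in XX than XY oocytes. Hist1h2bc was above 0 in both comparisons that involve XX oocytes under every alternative tried. The alternatives reuse the same counts and, except without the filter, the same choice of genes, so this agreement in sign is no independent support.

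Without the filter all 38 members could be tested among 28051 genes, and 1 of them was called in 1 comparison. Neither XX against XO, where 14.1% of all genes were called, nor XX against XY, where 4.33% were, gave a called member. In XY against XO, with 9.75% of all genes called, Hist2h3b was lower in XY oocytes (edgeR adjusted p = 0.194). Because all XY samples were at 0, its fitted fold change depends on the settings, and the counts allow no more than a lower bound. Set against 3 UMIs over the XY samples, or 0.364 normalized CPM, the mean of 1.10 in XO oocytes was at least 3.01-fold higher, if the XO counts are taken as exact. Without XO3, which held 4 of the 6 UMIs, it was at least 1.42-fold higher in the same sense. With the counting error of the XO UMIs included, both bounds would be lower. Without XO3 the difference was no longer called (adjusted p = 0.922), whereas it was called with the replicate number as a block (adjusted p = 0.348). Hist2h3c1 and Hist2h3b were not called in XX against XY (adjusted p = 0.874 for each). No member passed an adjusted p of 0.05 in either fit.

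A count of genes whose samples do not overlap gave a like picture. In normalized CPM, 2 members were higher in all XX than in all XO samples (Hist1h2be and Hist1h1e, with 3 and 4 UMIs in XX and none in XO). Of all gene rows, 10.5% did not overlap in one or the other direction, 2.21% higher in XX and 8.30% lower. Hist1h2be (chr13:23583670-23621124) and Hist1h1e (chr13:23620629-23622558) overlap on the minus strand, and their counts are at or near the detection limit, so no fold is given. In XX against XY 1 member (Hist2h3c1, higher in XX) did not overlap, with 10.6% of all rows, 3.05% higher in XX. In XY against XO it was 1 member (Hist2h3b, lower in XY), with 7.59% of all rows, 4.51% lower in XY.

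The sum over the members depended on the scale. Per 1000000 gene UMIs it was 24.1, 23.3 and 26.2 in XX, 20.4, 11.4 and 15.9 in XO and 19.2, 19.2 and 16.2 in XY samples, with every XX sample above every other sample. The means were 24.5 ± 1.51, 15.9 ± 4.50 and 18.2 ± 1.77 (SD, n = 3). In normalized CPM, the sums were 21.4, 20.0 and 21.0 in XX, 24.3, 13.4 and 22.6 in XO and 19.1, 16.6 and 15.4 in XY samples. On this scale XX remained above XY, with 20.8 ± 0.736 against 17.0 ± 1.87, but was within the range of XO oocytes, with 20.1 ± 5.85. The mean log2 difference of XX from XO samples was 0.67 on the first scale and 0.09 on the second, that of XX from XY samples 0.43 and 0.29, and that of XY from XO samples 0.23 and −0.20. Without Hist1h2bc, the difference of XX from XY samples in normalized CPM was 0.13 and these genotypes overlapped. Per 1000000 gene UMIs, too, the sums without Hist1h2bc overlapped, at 16.04 to 19.8 in XX against 9.63 to 16.9 in XO and 12.0 to 16.9 in XY samples. No p is given for the sums.

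**Figure D3:**
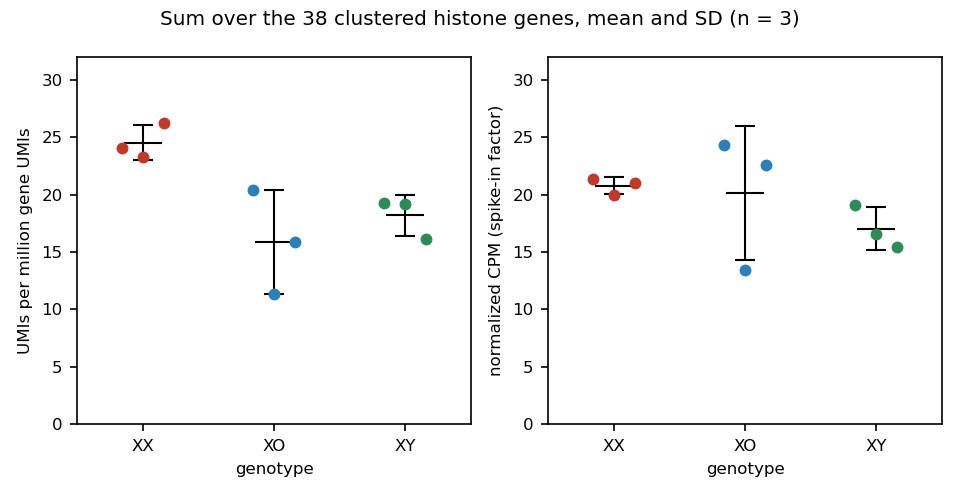
Sum over the 38 members in each sample, as UMIs per 1000000 gene UMIs (left) and as normalized CPM (right), by genotype, with means and SD (n = 3). XX samples lie above all others on the left, whereas XO1 and XO3 lie above them on the right.

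The samples differed on the whole in ways that bear on this. Normalized CPM added up to between 802037 and 888533 over all genes in XX, 1181293 and 1422594 in XO and 864867 and 990044 in XY samples. Between XX and XO oocytes, 154 genes were called higher in XX and 1832 lower with the spike-in factors. Factors computed on the genes gave 481 and 864, and the batch-regressed values 3993 and 855. With the ERCC total as library size, 290 were called higher in XX and 53 lower. XO1 stood apart for some oocyte genes, for example H1foo below. Oocyte markers added up to between 19704 and 60648 normalized CPM in every sample, and 14 of 15 had at least 10 UMIs. Of 18 granulosa markers 12 were rows, and they added up to between 52.9 and 95.4 normalized CPM, with 52.9–70.5 for XX, 64.7–76.2 for XO and 59.9–95.4 for XY samples. Foxl2 and Amh were not among the rows, and of 4 tested granulosa markers Kitl was called higher and Hsd3b1 lower in XX than XO, and Hsd3b1 lower in XY than XO oocytes. Of 14 tested oocyte markers 5 were lower in XX than XO, 6 were lower in XY than XO, and 1, Bmp15, was higher in XX than XY oocytes, where 16.7%, 8.24% and 1.41% of all tested genes were called in the same direction. Theca and stroma markers (7 rows of 10) added up to at most 14.2, and blood and immune markers (3 of 8) to between 14.5 and 133, with no call in the 1 gene of each list that was tested. The part of other cells in the histone values was not tested. In pools, fewer cells with an RNA and less RNA per cell cannot be told apart.

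The length of the annotated transcript, which the choice by name did not use, was looked at after the values were seen. A short histone mRNA ends shortly after its stem-loop. Of the 36 protein-coding members, 20 had an annotated transcript that went on for at least 200 bases past the stop codon, and these held 338 of the 442 UMIs (76.5%). Of the 12 members with at least 10 UMIs, 9 were of this kind, and 11 of the 20 had fewer. They were Hist1h2bc, Hist2h4, Hist1h1c, Hist4h4, Hist2h3c1, Hist1h1d, Hist1h2bh, Hist3h2a and Hist1h2ac, with 742 to 4931 bases past the stop codon. The transcript of Hist1h2bc is spliced from 2 exons and has no stem-loop by the search used, and that of Hist1h1d is 7425 bases long and passes 4884 bases beyond its stem-loop. The hexamer AATAAA, a signal for poly(A) addition, stood in the last 60 bases of 9 of the 24 coding transcripts of members that were long in this sense and of 1 of the 18 short ones, against 41.1% of all 58797 protein-coding transcripts.

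Members with a short annotated transcript fell into a pair of kinds. The 10 that end shortly after a stem-loop had 23 UMIs in all (5.20%), a median of 2 and at most 4 each, and none reached 10. They include Hist1h3g, Hist1h4a, Hist2h2aa1, Hist1h2bk and Hist1h2bj. The 6 without a stem-loop in the annotated transcript had 79 UMIs (17.9%), of which Hist2h2bb held 52, Hist2h3b 10 and Hist1h1a 10. The annotation of Hist2h2bb stops at the end of its coding sequence of 381 bases, so its true 3′ end is not given by it. Among the 20 long ones, Hist1h2bq and Hist1h2br, with 1608 and 1803 bases past the stop codon, had 1 UMI each. Both also have an annotated transcript of 381 bases that ends at the stop codon. UMIs were counted at the 5′ end, so the 3′ end of a counted molecule is not known. Length past the stop codon and detection therefore went together in part of the members and not in all. In Gencode vM21 as a whole, 25 of the 67 protein-coding genes with such names were of the long kind, of which 20 were rows here, as against 10 of 25 short ones with a stem-loop and 6 of 17 without.

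**Figure D4:**
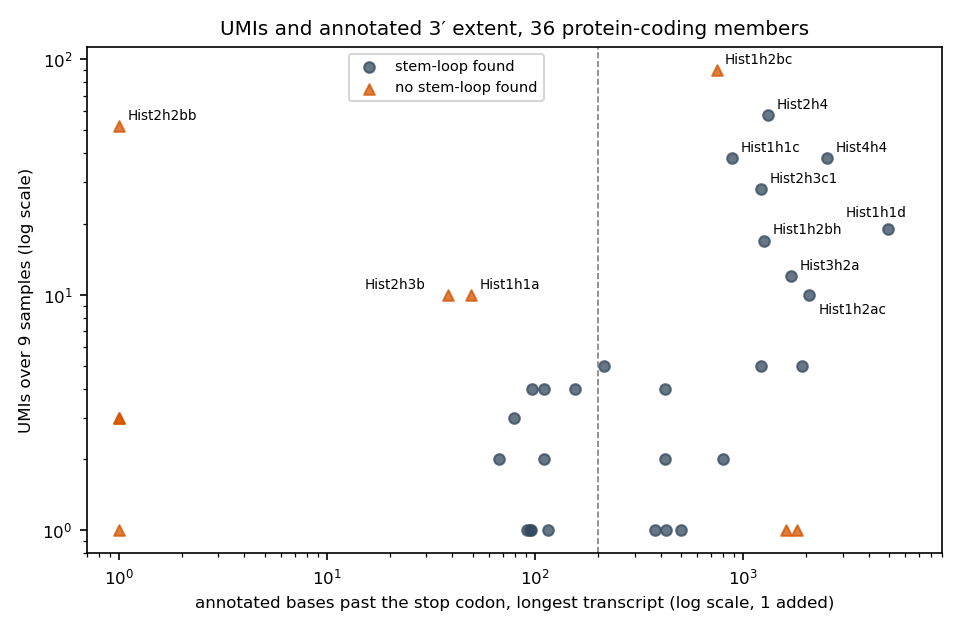
UMIs over 9 samples (vertical, log scale) against the annotated bases past the stop codon (horizontal, log scale, 1 added) for the 36 protein-coding members. Circles have a stem-loop by the search used and triangles do not, some points coincide, and the dashed line marks 200 bases. All members with a stem-loop and at least 10 UMIs lie to the right of the line, and Hist2h2bb, Hist2h3b and Hist1h1a are the labelled genes to its left.

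Per kb of the longest annotated transcript, the order of the levels changed at the top. Hist2h2bb led with 5.88 normalized CPM per kb, followed by Hist1h2bc with 3.28, Hist2h4 with 1.52, Hist1h1c with 1.15 and Hist2h3b with 1.05. Hist1h1d went from rank 7 to rank 26. A 5′ UMI does not grow in number with length, so both orders are given.

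Some members cannot be fully separated by their reads. Coding sequences were identical within 3 pairs, Hist2h3c1 and Hist2h3c2, Hist2h2aa1 and Hist2h2aa2, and Hist1h2bq and Hist1h2br, and how reads that fit both copies were counted is not given in the sources used here. Hist2h3c1 had 28 UMIs and Hist2h3c2 had 1, whereas Hist1h2bq and Hist1h2br had 1 UMI each, both in XX1. Besides Hist1h1e and Hist1h2be, 5 members overlap other annotated genes on the same strand, among them Hist2h2bb with Gm42743, Hist2h3c1 with Gm20634 and Hist3h2a with Trim17. The values of these members are uncertain to that extent.

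Histone genes outside the clusters, most but not all of which are transcribed without replication and have only polyadenylated mRNAs, gave a scale for these levels. Per kb of the longest annotated transcript, the 38 clustered genes had a median of 0.174 normalized CPM (0.0180 to 5.88), and 13 solitary histone genes a median of 1.30 (0.0320 to 380). Without the division by length the medians were 0.145 and 3.82 normalized CPM, and that of 12 granulosa markers was 1.14. Highest of the solitary histone genes was H1foo, the oocyte linker histone. Its level was 112 ± 37.3 normalized CPM (SD, n = 3) in XX and 97.3 ± 73.2 in XY oocytes, and 15.5, 856 and 2576 in the 3 XO samples. The difference in H1foo was called between XX and XO oocytes (log2 difference −3.35 ± 1.29, adjusted p = 0.236) and between XY and XO oocytes (−3.56 ± 1.30, adjusted p = 0.485), although XO1 lay below the XX mean. H3f3b, which encodes the replacement histone H3.3, had 135 ± 30.6 normalized CPM in XX oocytes, against 157 ± 83.7 in XO and 124 ± 25.9 in XY oocytes, and was not called. Its normalized CPM alone was above the sum of all 38 clustered genes in each sample. H2afz (H2A.Z) was called between XY and XO oocytes (log2 difference −1.01 ± 0.45, adjusted p = 0.501). Of 7 tested solitary genes, 1 was lower in XX than XO, none differed between XX and XY by this test, and 2 were lower in XY than XO oocytes, against 16.7% and 8.24% of all tested genes lower in the first and the last of these. The median log2 differences were −0.40, 0.04 and −0.43.

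The machinery for the 3′ ends of histone mRNAs was well detected. Of 26 listed genes 25 had at least 10 UMIs, with a median of 3.03 normalized CPM per kb. Slbp, which encodes the stem-loop binding protein, had 234 ± 46.2 normalized CPM in XX oocytes, against 301 ± 165 in XO and 214 ± 64.0 in XY oocytes. It was not called. Of the 20 tested, 2 were called, both lower in XX than XO oocytes, where 16.7% of all tested genes were called lower. Snrpg, an Sm protein, differed by −1.58 ± 0.50 on the log2 scale (adjusted p = 0.203), and Zfp473, a protein of the U7 processing complex, by −1.14 ± 0.47 (adjusted p = 0.253). The median log2 difference of the list was −0.51 in XX against XO, near the −0.46 of all genes, −0.28 in XX against XY and −0.41 in XY against XO.

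For histone chaperones, 18 of 20 were tested. In XX against XO oocytes, with 16.7% of all tested genes lower, 3 were lower, Cabin1 (log2 difference −2.44 ± 0.99, adjusted p = 0.251), Nap1l4 (−0.89 ± 0.29, adjusted p = 0.203) and Nasp (−0.76 ± 0.34, adjusted p = 0.275), which carries H3 and H4 as well as H1. Rbbp7, an X-linked histone binding protein, was called higher in XX than XY oocytes, as were 1.41% of all tested genes (0.98 ± 0.39, adjusted p = 0.765). The median log2 differences of the list were −0.61, −0.14 and −0.35. Of 26 genes of S phase, 23 were tested and all 26 had at least 10 UMIs. In XX against XO 5 of the 23 were lower, against the same 16.7% of all tested genes, among them Mcm5 (−2.61 ± 1.12, adjusted p = 0.265), E2f2 (−2.25 ± 0.81, adjusted p = 0.223) and Pcna (−1.04 ± 0.35, adjusted p = 0.208). Pcna was also lower in XY than XO oocytes, as were 8.24% of all tested genes, and Pola1, an X-linked DNA polymerase subunit, was higher in XX than XY oocytes (0.66 ± 0.23, adjusted p = 0.650). The median log2 differences were −0.70, −0.13 and −0.55. Per gene, the median level was 0.145 normalized CPM for the clustered genes, 17.5 for the genes of histone mRNA processing, 34.7 for those of S phase and 40.0 for the chaperones.

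**Figure D5:**
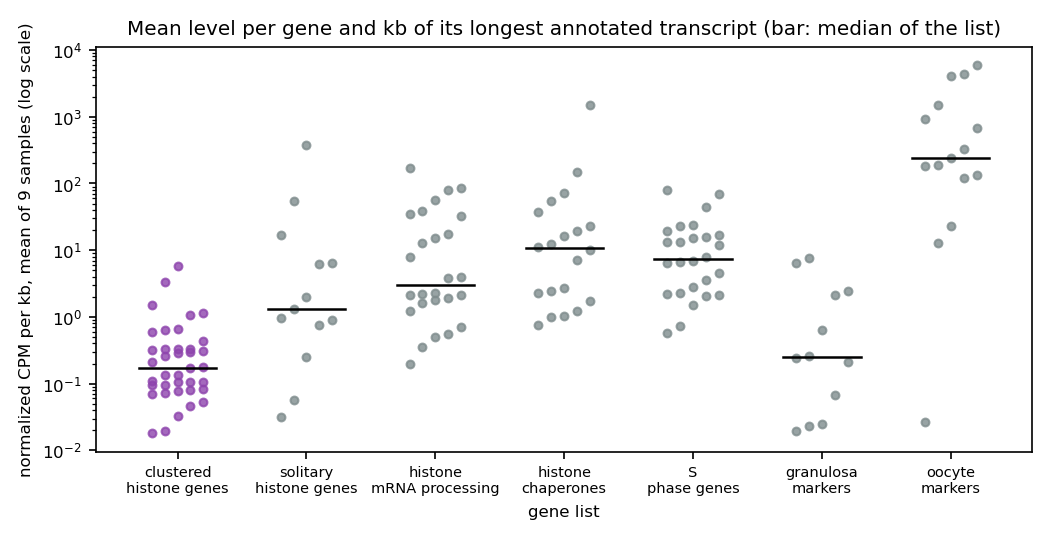
Mean normalized CPM over 9 samples per kb of the longest annotated transcript (log scale) for each gene of 7 lists, with the median of each list as a bar. The clustered histone genes, with a median of 0.174, have a lower median than the granulosa markers, with 0.250, and the oocyte markers, with 238, are the highest list.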

How the data were processed

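The RNA of 9 oocyte pools, 3 each from XX, XO and XY females, was analysed by genotype as labelled. HISAT2, run by the authors in a stranded mode for read pairs, placed reads on GRCm38 with Gencode transcripts (versions not given in the sources used here), and UMIs of 5′ exons were deposited as counts, with 79 ERCC spike-ins (0.204–0.862% of UMIs). The deposited normalized CPM is a signal, the counts times 1 constant per sample that holds the gene total and the spike-in factor. In the tests, the spike-in factor was computed among the spike-ins relative to their own total. The amount of spike-in in a sample therefore does not enter it. The third deposited matrix holds log2 values after regression of batch effects by the authors, and was used in 1 alternative. Depth was 2130145 to 3157338 gene UMIs per sample. A total of 3 UMIs over a genotype, the limit that a count of 0 allows, covers counting error only.

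Members were chosen by name, and the members and lists were chosen with earlier results of these data known. All members were kept. Counts were tested with edgeR 4.0.16 (filterByExpr, quasi-likelihood F test, two-sided), after a check of the test on simulated data, with Benjamini-Hochberg adjustment. Alternatives used DESeq2 1.42.0, sva 3.50.0 and limma 3.58.1. Named with values are the 3 members of each class with the highest mean normalized CPM, members called, and Hist1h2aa and Hist1h2ba. From other lists at most 4 called genes were named by size of change. The values of 1 such gene are not reported here. Slbp, H3f3b, Hist1h1e, Hist1h2be, Hist1h2bq, Hist1h2br, Hist2h3c2 and other genes outside this rule were chosen after their values were seen. Transcripts are those of Gencode vM21, where all 38 members have the deposited coordinates. A transcript was called long with at least 200 bases past the stop codon. In R 4.3.3, deviations from genotype means over 10993 genes correlated at 0.830, 0.278 and 0.773 between XO and XY samples of the same number, and at −0.447 to 0.726 where an XX sample was involved, so the numbers do not pair all samples. The labels do not say what a number marks.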

Additional observations from a re-analysis of the deposited data

How the results depend on the processing

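No member was called among the tested genes, and the count stayed at 0 under the other alternatives except for the following. It was 1 with the batch-regressed values in XX against XO, 1 in XX against XY with factors computed on the genes, with 2 surrogate variables, with the batch-regressed values and with DESeq2, and 1 in XY against XO without the filter. Of all tested genes, the batch-regressed values called 3993 higher in XX than XO oocytes. The settings named for XX against XY called 293, 1010, 1162 and 288 higher, in the same order. Leaving out single samples gave 0 to 1 in XX against XY, where the call came without XY3, and 0 elsewhere. With the replicate number as a block the count was 0 in all comparisons for the 1 member that passed the filter. In the fit without the filter, where the block and the left-out samples were also chosen after seeing the data, Hist2h3b in XY against XO was called with the block (log2 difference −4.55) and without each single sample except XO3 (−3.59). There Hist2h3c1 was called in XX against XY without XO1, XO3 or XY3, Hist2h3b in XX against XY without XX2, and Hist3h2a in XY against XO without XO1. The shares of all genes called in these fits were 8.07%, 4.30%, 3.38%, 2.64% and 18.1%, in the same order. The difference of Hist1h2bc between XY and XO oocytes turned from −0.29 to 0.055 with the ERCC total as library size, 0.32 with 2 surrogate variables, 0.12 in the batch-regressed values and 0.084 without the samples numbered 1, an alternative chosen after seeing the data, and ranged from −0.54 to 0.01 without single samples, with the change of sign without XY2. The cause was not tested. The log2 difference of the sum of members moved from 0.09 in XX against XO to 0.67 per 1000000 gene UMIs, 0.46 with factors on the genes and 0.84 with the ERCC total. In XX against XY it moved from 0.29 to 0.43, 0.47 and 0.97 in the same order and to 0.13 without Hist1h2bc, and in XY against XO from −0.20 to 0.23 per 1000000 gene UMIs. Without single samples these sums ranged from −0.17 to 0.25, 0.22 to 0.38 and −0.47 to −0.04. With a minimum of 10 UMIs, 12 members were detected in place of 38. Of the 38 members 26 had fewer than 10 UMIs, which limits the size of a difference that these counts can show.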
